A study of Mus musculus with 2 samples.

Results

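Kupffer cells are described here by the 499 genes that were listed for the Kupffer cell cluster when each of 12 cell clusters of mouse liver was compared with all other cells. The genes were taken as every row of that cluster in the deposited marker table, without a further filter. They made up 28.4% of the 1755 genes listed for any cluster. The cells came from fasted wild-type male BALB/c mice, which for hepatocyte isolation were 8 to 10 weeks old. The mice received daily intraperitoneal injections of phosphate-buffered saline (PBS, the control) or of 0.5 µg recombinant IL-33 (rIL-33), a cytokine that activates group 2 innate lymphoid cells, for 5 days. Livers were dissociated by enzyme perfusion, the cells were loaded without sorting, and single-cell RNA sequencing (scRNA-seq) gave 1 droplet-based library for each condition. Both libraries were pooled in the table, so no value for PBS or rIL-33 alone was analysed, there was no replicate, and no test was run. Cells with more than 3000 detected genes had been removed, which limits which Kupffer cells could enter.

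Kupffer cells are the resident macrophages of the liver. They line the sinusoids, where they take up bacteria, immune complexes, aged red blood cells and modified lipoproteins from the blood, degrade them in lysosomes and return iron from heme to the circulation. They depend on signalling through the CSF1 receptor, and their best known surface and secreted proteins in the mouse are the C-type lectin CLEC4F, the complement receptor VSIG4, the scavenger protein CD5L and the C1q subunits of complement.

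For each gene the table gives 2 shares: the percentage of cells in the cluster with a value above 0, and the same percentage in all other cells. Every row of the table had at least 1 share of 25% or more. A gene listed for no cluster has no share here, so its share is unknown and not 0. A share counts cells with a value above 0 and is no level of expression. Shares of different genes are therefore set side by side here without ranking their abundance. Where a gene is said to be found in cells, this means a value above 0 and nothing more. From the balance of both shares over 1115 genes listed for at least 2 clusters, the Kupffer cell cluster held 2.68% of all cells. The 5 hepatocyte clusters together held 90.0%, so "all other cells" were mostly hepatocytes. The depth per cell and the number of cells behind each share are not given in the tables, so shares are printed without a counting interval.

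A limit that touches every share came from a second table, which compared hepatocyte clusters with each other. Of 136 pairs of a Kupffer cell gene and a hepatocyte cluster found in both tables, 15 had equal shares and 121 had a higher share in the table of all cells. The median difference was 10.5 percentage points and the largest was 51, for Ogt, the enzyme that attaches N-acetylglucosamine to proteins. The values behind the 2 tables were therefore not the same, and the shares may not be plain rates of detected transcripts. Whether free RNA or the processing of the values raised the shares of Kupffer cell genes in hepatocytes was not tested.

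All 6 marker genes of Kupffer cells were listed for this cluster and for no other. The authors named the clusters by hand from their markers, so this describes the label and is no independent check of it. C1qa, C1qb and C1qc encode the chains of C1q, which starts the classical complement cascade. C1qa was found in 95.4% of Kupffer cells and 24.4% of all other cells, C1qc in 92.4% and 28.2%, and C1qb in 75.5% and 17.1%. The 3 genes lie side by side on the minus strand at chr4:136880129-136898803 of GRCm38, within 18675 bases. Clec4f, a lectin restricted to Kupffer cells, had shares of 89.1% and 22.5%. Cd5l, a secreted scavenger protein of macrophages, had 88.7% and 24%. Vsig4, a receptor for complement fragments on particles, had 81.1% and 24%. In each case the share in the cluster was over 50 points above that in all other cells, yet none of the 6 was near 0 in the latter.

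Few members of the fixed marker sets of other cell types were on the list. None of the 5 B cell, 5 T or NK cell, 4 neutrophil, 7 hepatocyte, 2 red blood cell and 1 dendritic cell markers found in the table was listed for Kupffer cells. Of 5 monocyte markers in the table, Cx3cr1, the fractalkine receptor, was listed, with shares of 59.6% and 6.8%, whereas Ccr2, Ly6c2, Plac8 and S100a4 were listed for other clusters. Fcgr2b, an inhibitory Fc receptor that sinusoidal endothelium also carries, was the 1 of 9 endothelial markers listed, in 26.2% of Kupffer cells against 22% of all other cells. Pecam1 (30.1% and 5%) and Cdh5 (26.5% and 4.7%), adhesion genes also known from endothelium, were not in that marker set but were listed for Kupffer cells. Ecm1, a matrix protein of stellate cells, was the 1 of 7 stellate markers, in 26.5% against 7.1%, while its share in the hepatic stellate cell (HSC) / fibroblast cluster was 100%. That cluster held 0.171% of all cells, so its shares here and below rest on few cells.

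Over all 499 genes the median share was 39.1% in Kupffer cells (range 6.3 to 97.7%) and 22.1% in all other cells (0.1 to 69%), and the median difference was 22 percentage points. In 423 genes the share was higher in Kupffer cells, in 2 it was equal and in 74 it was lower, although the gene was listed for the cluster. In the rows of all 12 clusters together 6.12% had a lower share in their own cluster. For Kupffer cells this was 14.8%, below the 18.1% of neutrophils and the 36.7% of endothelial cells and above the 5.28% of B cells and 2.84% of T cells, and it reached 43.2% in Hepatocyte3. In Kupffer cells 134 genes reached a share of 50% and 39 reached 75%. In all other cells 228 genes had a share of 25% or more, 70 had 5% or less and 18 had 1% or less.

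**Figure D1:**
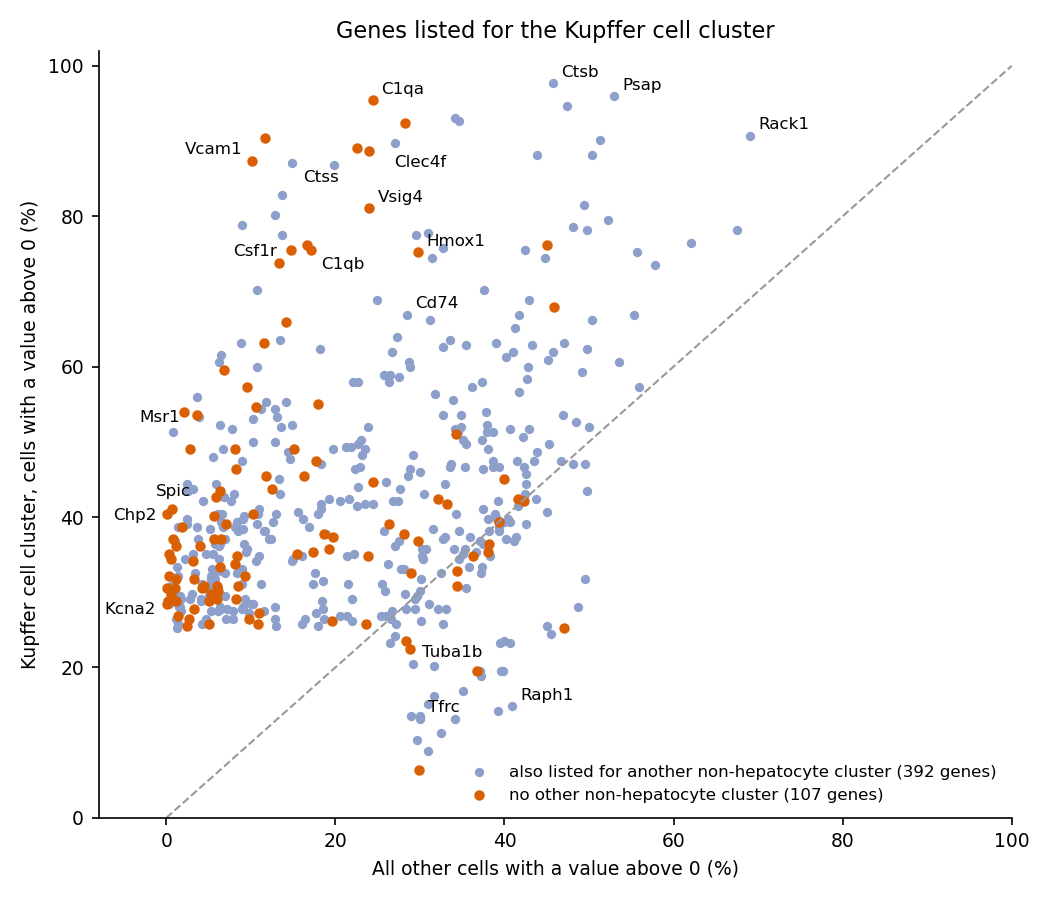
Percentage of cells above 0 in the Kupffer cell cluster (vertical axis) against the share in all other cells (horizontal axis, %), 1 point for each of the 499 listed genes, orange where listed for no other non-hepatocyte cluster and blue where shared; the dashed line marks equal shares. The marker genes lie at the upper left but at 17.1 to 28.2% on the horizontal axis, Chp2, Kcna2, Spic and Msr1 lie against the left edge, and 74 genes lie below the line.

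When the genes were sorted into 19 functions, complement and soluble recognition had the largest median difference, 50.2 points over 7 genes, and the endoplasmic reticulum and secretory pathway the smallest, 3.5 points over 39 genes. Between them lay iron and heme handling (37 points, 4 genes), the oxidative burst and antimicrobial proteins (35.8, 9 genes), scavenger, lectin and uptake receptors (31.3, 22 genes) and Fc and other immune receptors (30, 36 genes). The functions with small differences were those used by every cell, such as RNA and chromatin genes, with a median of 6 points over 32 genes. Over all 499 genes 21.4% were listed for no other non-hepatocyte cluster, which is the share to set beside such counts below.

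**Figure D2:**
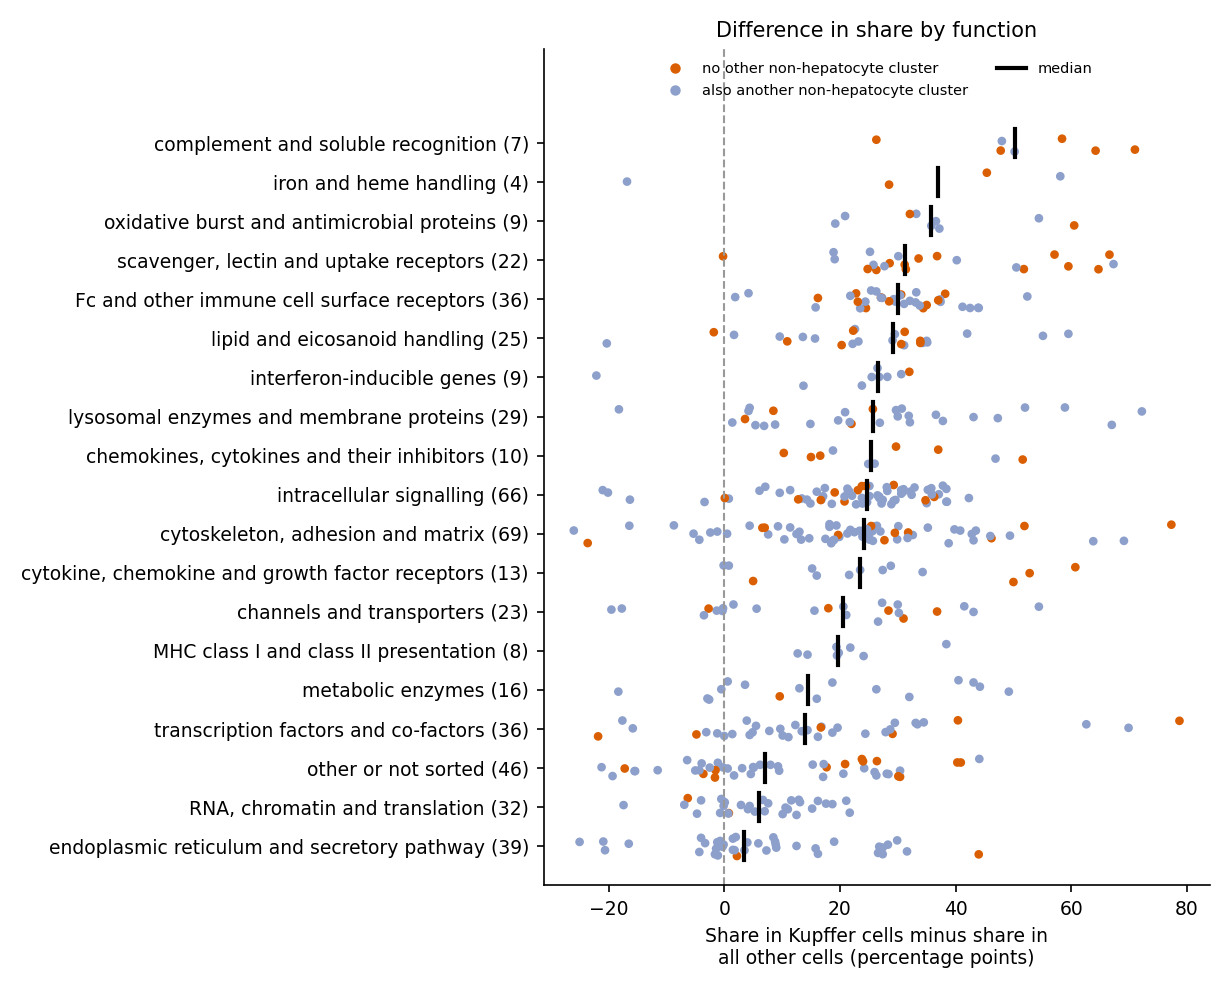
Difference between the share in Kupffer cells and in all other cells (horizontal axis, percentage points) for each listed gene, in rows by function with the number of genes in brackets. Black bars are medians, orange points are genes listed for no other non-hepatocyte cluster and blue points are listed for another one; points spread along the row at random height. Medians run from 50.2 points for complement to 3.5 for the endoplasmic reticulum.

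Beside the C1q chains, the complement genes were C6, Cfp, C3ar1 and the related lectin Fcna. Cfp, properdin, which stabilizes the enzyme of the alternative pathway, was found in 57.3% of Kupffer cells and 9.5% of all other cells. C3ar1, the receptor for the fragment C3a, had shares of 30.5% and 4.2%. Neither was listed for another cluster. C6, a component of the membrane attack complex, had 63.6% and 13.4%, and Fcna, ficolin A, which binds sugars on microbes, had 77.5% and 29.5%. Both of these were also listed for the HSC / fibroblast cluster, with 73.7% for C6 and 78.9% for Fcna. Of 14 complement genes other than C1q in a fixed list, 11 were in the table and 3 of them, C6, Cfp and C3ar1, were listed for Kupffer cells. The remaining 8, C3 and Cfb among them, were listed for other clusters. Of all genes listed for any cluster, 28.4% were listed for Kupffer cells. This is the share to set beside the counts from this and later fixed lists.

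Because the members were found together in 1 cluster, their promoters were searched for the motifs of factors known in macrophages. Promoters were those of RefSeq on GRCm38.p6, 250 bases before to 50 after the start, and 388 of the 499 genes had an entry. The motif of PU.1, GAGGAAGT, was present on either strand for 24 of these 388 genes (6.19%) and for 3.69% of 27025 genes. Counts are of genes: a gene with several promoters counted once if any of them held the motif. Genes with more promoters thus had more places for a match. Of the genes with an entry, 81 were listed for Kupffer cells alone among the non-hepatocyte clusters. The motif was present for 7 of these 81 (8.64%): Arhgap25, C1qc, Fcgr4, Fgd2, Hpgds, Nceh1 and Ptgs1. PU.1, encoded by Spi1, is the Ets factor that myeloid cells require. The C1qc promoter at chr4:136892865-136893164 (minus strand) is printed with that of its neighbour C1qb at chr4:136886151-136886450 (minus strand) and with those of Hpgds, chr6:65144681-65144980 (minus strand), and Clec4f, chr6:83656067-83656366 (minus strand), as examples with and without the motif; capitals mark it.
C1qc: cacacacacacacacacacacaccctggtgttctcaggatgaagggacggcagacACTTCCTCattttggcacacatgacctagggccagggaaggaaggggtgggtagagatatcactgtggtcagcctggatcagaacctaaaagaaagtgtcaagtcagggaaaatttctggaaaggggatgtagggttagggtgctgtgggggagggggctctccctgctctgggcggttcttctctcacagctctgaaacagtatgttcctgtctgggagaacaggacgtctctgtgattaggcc
C1qb: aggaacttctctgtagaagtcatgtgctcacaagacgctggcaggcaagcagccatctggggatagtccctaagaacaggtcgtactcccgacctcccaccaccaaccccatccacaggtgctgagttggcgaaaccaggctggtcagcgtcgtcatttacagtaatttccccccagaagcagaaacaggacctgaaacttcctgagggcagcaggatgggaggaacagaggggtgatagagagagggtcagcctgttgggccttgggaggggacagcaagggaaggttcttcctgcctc
Hpgds: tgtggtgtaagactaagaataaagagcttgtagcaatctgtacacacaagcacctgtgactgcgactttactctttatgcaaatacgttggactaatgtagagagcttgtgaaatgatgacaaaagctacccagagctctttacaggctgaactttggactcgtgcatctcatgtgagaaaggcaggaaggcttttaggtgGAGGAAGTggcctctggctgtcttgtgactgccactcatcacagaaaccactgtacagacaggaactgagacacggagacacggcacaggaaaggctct
Clec4f: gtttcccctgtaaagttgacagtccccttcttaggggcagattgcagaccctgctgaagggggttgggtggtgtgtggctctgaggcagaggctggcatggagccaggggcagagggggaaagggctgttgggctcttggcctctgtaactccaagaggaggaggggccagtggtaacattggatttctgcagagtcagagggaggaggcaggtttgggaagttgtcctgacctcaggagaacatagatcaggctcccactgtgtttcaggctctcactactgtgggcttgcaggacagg
The motif read on the opposite strand in C1qc and on the gene's own strand in Hpgds. A match of letters is not a bound site. Of the other motifs, that of AP-1 (TGACTCA) was present for 6.96% of Kupffer cell genes and 5.95% of all genes. It was present for 9 of the 81 genes listed alone (11.1%), a larger share than that of PU.1. The spaced IRF motif was present for 6.7% of Kupffer cell genes, 3.99% of all genes and 5 of the 81 (6.17%). For the E-box TCACGTGA these were 1.8%, 1.12% and 1 of the 81 (1.23%). The C/EBP motif TTGCGCAA was present for 3 of the 388 genes (0.773%) and 0.207% of all genes. The NF-kB motif was present for 1 (0.258%) and 0.174% of all genes, and neither was present for the 81. The 6 motifs were searched on both strands, and a gene whose promoters held several motifs counts under each of them.

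Scavenger, lectin and uptake receptors bind particles and modified molecules. Their 22 genes had median shares of 44.6% in Kupffer cells and 12.7% in all other cells, and 13 of them were listed for no other non-hepatocyte cluster. Mrc1, the mannose receptor, was found in 80.1% of Kupffer cells and 12.8% of all other cells, and the one other cluster that listed it was the endothelial cell cluster with 33.3%. Cd163, which takes up hemoglobin bound to haptoglobin, had shares of 76.2% and 16.7%. Mertk, a receptor for apoptotic cells, had 65.9% and 14.1%. Timd4, which binds phosphatidylserine and marks long-resident Kupffer cells, had 37.1% and 5.7%. Cd163, Mertk and Timd4 were listed for Kupffer cells alone.

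Msr1, the class A scavenger receptor, combined a share of 51.3% in Kupffer cells with 0.8% in all other cells and was shared with the HSC / fibroblast cluster, at 63.2%. Axl, the relative of Mertk, had 53.3% and 13.1%, and it too was shared with that cluster, at 73.7%. Siglec1, the sialic acid receptor of macrophages, had 30.8% and 4.5%, and Folr2, a folate receptor, had 30.8% and 6%. Among the C-type lectins Clec4a3 (42.7% and 5.9%), Clec4a1 (43.7% and 12.5%) and Clec4n, which encodes Dectin-2 (28.8% and 0.2%), were listed for Kupffer cells alone, whereas Clec12a and Clec4a2 were shared with neutrophils. At the other end stood Scarb1, the receptor for high-density lipoprotein, with 42.1% and 42.3%, which was also listed for Hepatocyte4 and Hepatocyte5. In the fixed list of 37 scavenger receptors and lectins 23 were in the table and 19 were listed for Kupffer cells. Marco and Stab1, which are macrophage scavenger receptors too, were listed for no cluster.

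The 36 genes for Fc and other immune receptors had medians of 38.6% and 6.55%. Fcgr3, an activating receptor for IgG, was found in 55.3% of Kupffer cells and 14.1% of all other cells, and in 55.3% of neutrophils. Fcgr4, another activating receptor, had 32.1% and 9.3% and was listed for Kupffer cells alone. The common chains of activating receptors, Tyrobp (DAP12) and Fcer1g, were found in 58.9% and 59.9% of Kupffer cells. Both were more frequent in neutrophils, at 98.3% and 93.7%, and less frequent in B cells, at 36% and 31.6%. Fcgrt, the neonatal Fc receptor that recycles IgG and albumin, had 75.5% and 42.4%.

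Adgre1, which encodes the macrophage antigen F4/80, had shares of 46.4% and 8.2% and was listed for Kupffer cells alone, as were Cd83, Lair1, Lilra5, Ms4a6c and Siglece. Ly86, the partner of the Toll-like receptor relative CD180, had 56% and 3.6% and was shared with B cells at 40.1%. Sirpa, which reads the "do not eat" signal of CD47, had 68.9% and 24.9%, and Cd47 itself was listed as well, with 60.9% and 45.1%. Ptprc, the leukocyte antigen CD45, was found in 52.3% of Kupffer cells, below its shares of 64.8% in B cells, 79.7% in neutrophils and 93.2% in T cells.

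Antigen presentation was shared with B cells throughout. All 8 genes of this function were listed for both clusters, beside 46.3% of all 499 genes. Cd74, the invariant chain of MHC class II, was found in 66.9% of Kupffer cells, 89.9% of B cells and 28.5% of all cells other than Kupffer cells. H2-Ab1, H2-Aa and H2-Eb1, the class II chains, were found in 32.5%, 38.7% and 29.1% of Kupffer cells. Their shares in B cells were higher, at 69.6%, 68% and 60.3%. H2-DMa, which loads peptides, had 34.4% and 40.1%, and Ifi30, a lysosomal thiol reductase, had 51.3% and 68.8%, for Kupffer cells and B cells in turn. Of the class I genes H2-K1 and H2-D1 were listed, with 75.2% and 76.5% of Kupffer cells, but also 55.7% and 62.1% of all other cells.

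Lysosomal genes had the highest shares in Kupffer cells after complement, with medians of 57.3% and 33.6% over 29 genes, and 25 of the 29 (86.2%) were shared with another non-hepatocyte cluster, beside 78.6% of all 499 genes. Ctsb, the protease cathepsin B, had the highest share of the list, 97.7%, beside 45.7% in all other cells. Psap, the precursor of the saposins, had 96% and 52.9%. Grn, progranulin, had 94.7% and 47.4%. Lgmn, legumain, which cleaves after asparagine, had 93% and 34.1%. The cathepsin of antigen-presenting cells, Ctss, stood further apart, with 87.1% and 14.9%, and was shared with B cells at 73.3%. Laptm5, a lysosomal membrane protein of blood cells, had 86.8% and 19.8% and was also found in 75.7% of T cells, 51% of B cells and 36.7% of neutrophils.

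Other acid hydrolases followed with smaller differences. Ctsd, cathepsin D, had 81.5% and 49.4%, Hexa, a subunit of hexosaminidase, 60.6% and 28.7%, and Npc2, which carries cholesterol out of lysosomes, 74.5% and 44.8%. Cd68, the lysosomal glycoprotein used as a macrophage marker, had 33.8% and 8.1% and was listed for no other cluster. Lamp2, a protein of every lysosome, had 57.3% and 55.9%. In the fixed list of 69 lysosomal genes 31 were in the table, and 25 were listed for Kupffer cells.

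Genes of the oxidative burst and of antimicrobial proteins numbered 9, with medians of 39.7% and 8.8%. Mpeg1, perforin-2, which forms pores in ingested bacteria, was found in 73.8% of Kupffer cells and 13.3% of all other cells and was listed for Kupffer cells alone. Of the NADPH oxidase, Cybb had 63.2% and 8.8%, Ncf1 39.1% and 2.5%, and Cyba 61.9% and 41%. These 3 were shared with B cells, and Ncf1 and Cyba with neutrophils, where they were more frequent, at 40.9% and 83.1%. Lyz2, lysozyme, had 57.9% and 22.1%, and a share of 80.2% in neutrophils.

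Iron and heme handling was represented by 4 genes. Slc40a1, ferroportin, the exporter of iron, was found in 92.7% of Kupffer cells and 34.6% of all other cells. Hmox1, heme oxygenase 1, had 75.2% and 29.8%. Slc11a1, the metal transporter of the phagosome, had 29.1% and 0.6%. Hmox1 and Slc11a1 were listed for Kupffer cells alone, and Slc40a1 also for neutrophils at 32.5%. The transferrin receptor gene Tfrc, which brings iron in, ran the other way, with 13.2% of Kupffer cells, 30% of all other cells and 96.3% of red blood cells. Spic, the factor of macrophages that recycle red blood cells, is given with the transcription factors.

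The 25 genes of lipid and eicosanoid handling had medians of 38.7% and 14.4%. Pla2g7, the phospholipase that inactivates platelet-activating factor, had shares of 70.2% and 10.7%. Soat1, which esterifies cholesterol, had 61.6% and 6.5%. Lpl, lipoprotein lipase, had 48.7% and 14.4%, against 94.7% in the HSC / fibroblast cluster, and Abca1, which exports cholesterol, had 66.2% and 31.2%. Fabp7, a fatty acid binding protein, had 34.4% and 0.5%. The prostaglandin genes Ptgs1 (cyclooxygenase 1; 49% and 15.1%), Hpgds (prostaglandin D synthase; 31.8% and 1.2%) and Hpgd (which inactivates prostaglandins; 76.2% and 45%) were all listed for Kupffer cells alone among the non-hepatocyte clusters.

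Of 10 chemokines, cytokines and their inhibitors, 6 (60%) were listed for Kupffer cells alone, beside 21.4% of all 499 genes among the non-hepatocyte clusters. Ccl24, eotaxin-2, which attracts eosinophils, was found in 63.2% of Kupffer cells and 11.6% of all other cells. Ccl6, a chemokine for myeloid cells, had 77.8% and 30.9%, and 79.7% in neutrophils. Il18bp, the inhibitor of IL-18, had 55% and 18%, and Cxcl16 had 47.4% and 17.7%. Il1b had 35.4% and 9.4% and was more frequent in neutrophils, at 58.6%. In the fixed list of 40 chemokines and cytokines 12 were in the table and 8 of them were listed for Kupffer cells, beside 28.4% of all genes there. Tnf, Il6, Il10 and Ccl2 were listed for no cluster.

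Among 13 receptors for such factors, Csf1r, on which macrophages depend, was found in 75.5% of Kupffer cells and 14.8% of all other cells. Cx3cr1 had 59.6% and 6.8%, and Ccr3, a receptor for eotaxins, 53.6% and 3.6%. These 3 and Il6ra were the ones not shared with another non-hepatocyte cluster. The IL-33 receptor gene Il1rl1 and the IL-4 and IL-13 receptor genes Il4ra and Il13ra1 were listed for no cluster. This does not mean that they were absent: the paper reports elevated Il13ra1 in Hepatocyte4 and high Il4ra in Hepatocyte4 and Hepatocyte5. Their shares in Kupffer cells are unknown. Alternative macrophage activation is the program that IL-4 and IL-13 induce. Of 23 genes of it 7 were in the table and 4 were listed for Kupffer cells, beside 28.4% of all genes there. These 4 were Mrc1, Ccl24, Ear2, a ribonuclease (36.1% and 4%), and Socs2, an inhibitor of cytokine signals (24.5% and 45.5%). Arg1, Retnla and Chil3, the usual markers of that program, were listed for no cluster. Their shares are thus unknown, and whether Kupffer cells held this program was not tested.

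Transcription factors ranged from those of macrophages to those of most cells. Maf, a factor of macrophage differentiation, had 89.7% and 27.1% but was shared with the HSC / fibroblast cluster (100%), endothelial cells (51.9%) and T cells (45.9%). Zeb2, a repressor that protects Kupffer cell identity, had 78.8% and 8.9%. Spic had 41.1% and 0.7%. Spi1, which encodes PU.1, had 40.4% and 10.9% and was shared with neutrophils (69.6%) and B cells (38.9%), and Irf8, its partner, had 47.7% and 14.6%. Id3, another regulator of Kupffer cell identity, was common in all other cells, with 51.3% and 37.9%. Over the 36 factors the medians were 39.9% and 26.5%. Of them 6 (16.7%) were listed for Kupffer cells alone among the non-hepatocyte clusters, beside 21.4% of all 499 genes. Nr1h3, which encodes the nuclear receptor LXR alpha of Kupffer cells, was listed for no cluster.

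In the fixed list of 26 genes of Kupffer cell identity 22 were in the table and 21 were listed for Kupffer cells, 16 of them for no other non-hepatocyte cluster. Their median shares were 51.3% and 11.7%. Pilra, an inhibitory receptor, was the 1 gene of this list that was listed for other clusters, and Marco, Nr1h3, Cd207 and Xlr were listed for none. This list and the others were written with earlier results of these data known, so the counts only describe the table.

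Genes of adhesion, the cytoskeleton and the matrix were the largest function, with 69 genes and medians of 36.8% and 13.3%. Vcam1, an adhesion molecule of the cell surface, was found in 87.4% of Kupffer cells and 10.1% of all other cells. Marcks, which links actin to the membrane, had 82.8% and 13.7%, and Sdc3, a heparan sulfate proteoglycan, 77.5% and 13.7%. Aif1, the actin-binding protein IBA1 of macrophages, had 54% and 2.1%. Vcam1 and Aif1 were listed for Kupffer cells alone, and Marcks for 4 other non-hepatocyte clusters. Genes of moving leukocytes were shared widely: Coro1a was found in 28.5% of Kupffer cells, but in 80.4% of T cells, 74.7% of neutrophils and 63.2% of B cells.

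Intracellular signalling took 66 genes, with medians of 37.4% and 9.2%, of which 40 were shared with T cells and 36 with B cells. Of all 499 genes 41.7% were shared with T cells and 46.3% with B cells. Lyn, a Src kinase below Fc receptors, had 61.9% and 26.7%, Syk, the kinase it feeds, 41.1% and 18.3%, and Btk 26.5% and 7.9%. Rgs2, which shortens G protein signals, had 49% and 6.7%. In the fixed list of 67 genes of phagocytic signalling 51 were in the table and 39 were listed for Kupffer cells, only 2 of them, Dab2 and Ptprj, for no other non-hepatocyte cluster. Interferon-inducible genes numbered 9, with medians of 34.8% and 11%, led by Ifi207 with 39.1% and 7.1%. Of the 47 interferon genes in the fixed list 24 were in the table and 10 were listed for Kupffer cells, beside 28.4% of all genes there. Among these 10 was Rsad2 (8.9% and 31%), which was less frequent in Kupffer cells than in all other cells.

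Genes of the endoplasmic reticulum and secretory pathway, which fold and carry proteins, were mostly shared. Of the 39, 30 were shared with B cells, 2 with no other non-hepatocyte cluster, and 21 were also listed for a hepatocyte cluster. Of all 499 genes 46.3% were shared with B cells, 21.4% with no other non-hepatocyte cluster, and 96 were also listed for a hepatocyte cluster. Hspa5 and Hsp90b1, the main chaperones, were found in 66.2% and 78.1% of Kupffer cells, but also in 88% and 85.3% of Hepatocyte4. In 14 of the 39 the share in Kupffer cells was below that in all other cells. Transporters (23 genes; medians 36.4% and 32.7%) and metabolic enzymes (16 genes; 39.2% and 29.2%) ranged widely, from Slc43a2, an amino acid transporter (60.6% and 6.2%), and Gatm, which makes the precursor of creatine (59.9% and 10.7%), to genes more frequent in other cells. Few cell cycle genes were listed. Of 34 in the table, Tubb5, H2afz and Tuba1b were listed for Kupffer cells, beside 28.4% of all genes there. The other 31, such as Mki67 and Ccnb1, were listed for other clusters.

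**Figure D3:**
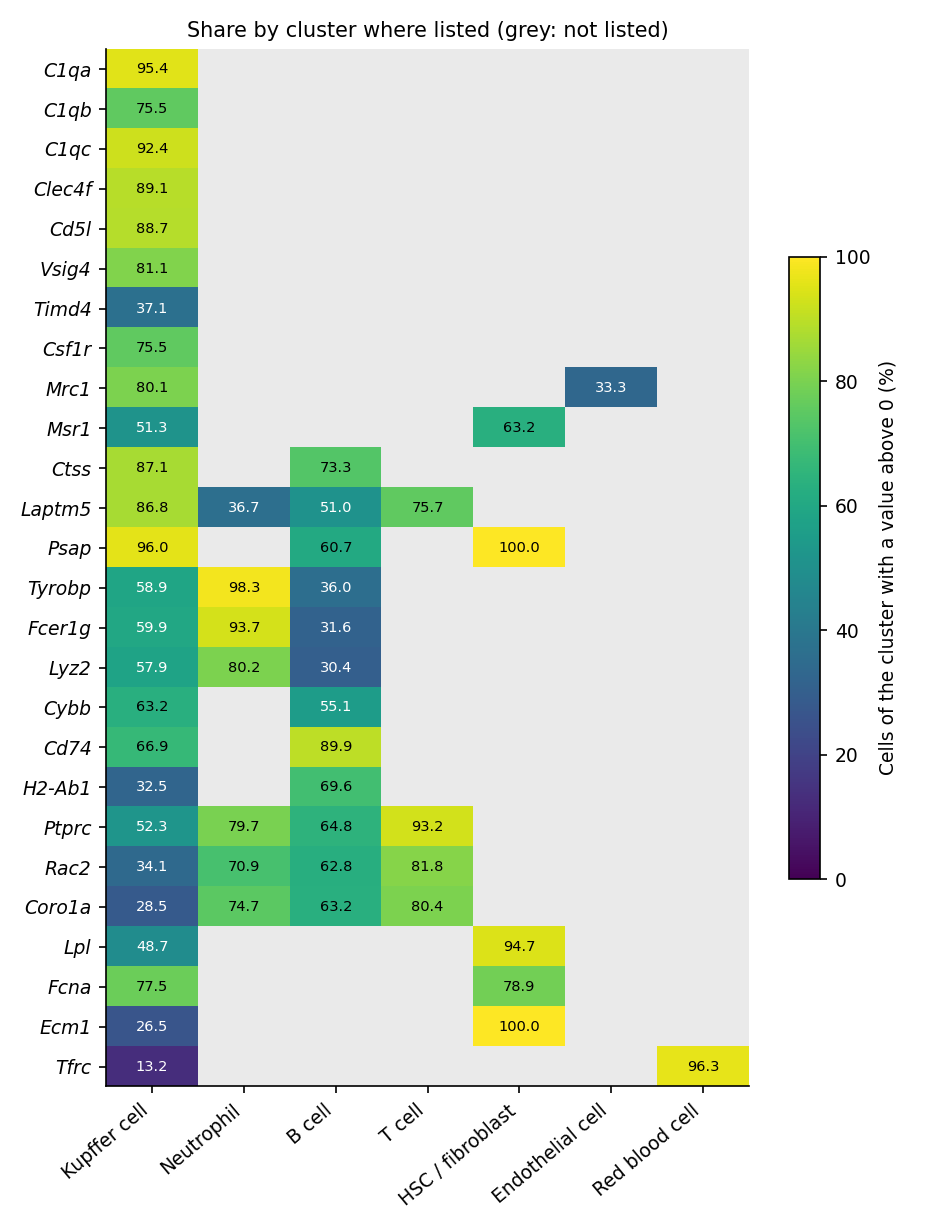
Share of cells with a value above 0 (%, colour scale and printed value) for 26 genes, in rows, in the Kupffer cell cluster and the 6 other non-hepatocyte clusters, in columns. Grey cells mark clusters for which the gene was not listed, where the share is unknown and not 0. The first 8 genes are coloured for Kupffer cells alone, Tyrobp, Fcer1g and Lyz2 are highest in neutrophils, Cd74 and H2-Ab1 in B cells, and Lpl and Ecm1 in the HSC / fibroblast cluster.

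How particular a gene was to Kupffer cells looked different when the sizes of the clusters were taken into account. Weighting both shares of a gene by the fitted relative sizes of the cluster and of all other cells gives a part. It is the part of all cells with a value above 0 that lay in the Kupffer cell cluster. For C1qa this part was 9.71%, and for C1qb, C1qc, Clec4f, Cd5l and Vsig4 it was 10.8, 8.27, 9.83, 9.23 and 8.51%. Most cells with a value above 0 for a defining marker were thus outside the Kupffer cell cluster, which holds 2.68% of the cells. How free RNA enters these parts was not tested.

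Over 50% of the cells with a value above 0 lay in the Kupffer cell cluster for 16 genes, over 25% for 46 and over 10% for 155. The highest part was that of Chp2, which encodes a calcineurin B-like protein, with 91.7% (88.1 to 95.7% by the rounding of the shares), from a share of 40.4% in Kupffer cells and 0.1% in all other cells. Tmem26, a membrane protein, had 30.5% and 0.1%, and Kcna2, a voltage-gated potassium channel, 28.5% and 0.1%, for parts of 89.4% and 88.7%. Clec4n (79.8%), Rgl1 (76.3%), Tspan15 (74.6%) and Ifi202b (72.3%) came next, followed by Fabp7 (65.4%), Msr1 (63.8%) and Tifab (62.1%). Spic stood at 61.8% and Slc11a1 at 57.2%. Of the 16 genes 11 were listed for no other non-hepatocyte cluster, Msr1, Ifi202b and Tnfrsf21 were shared with the HSC / fibroblast cluster, Slc9a9 with T cells and Plekho1 with B cells. All 16 had shares of 1% or less in other cells. For 74 genes, those with a lower share in Kupffer cells than in all other cells, the part was below the size of the cluster.

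**Figure D4:**
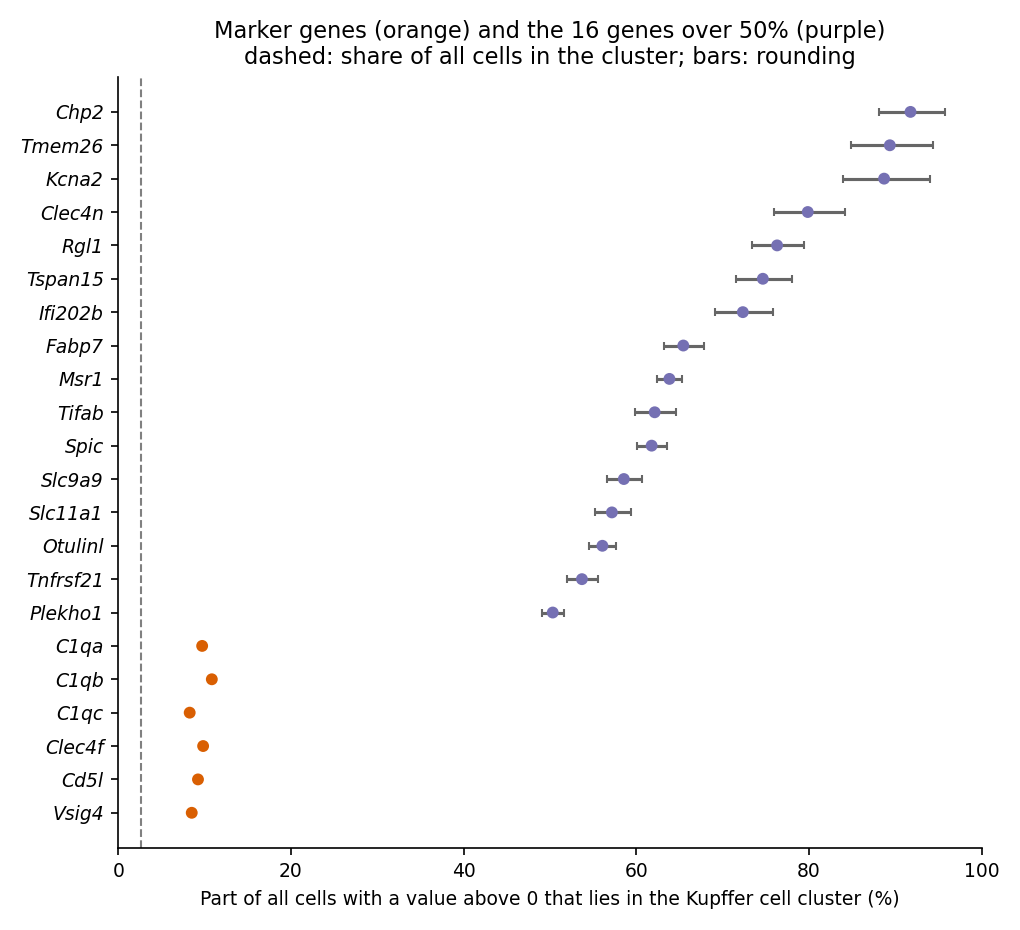
Part of all cells with a value above 0 that lay in the Kupffer cell cluster (horizontal axis, %) for the 16 genes over 50% (purple) and the 6 marker genes (orange). Bars span the values that the rounding of the shares allows, not a sampling error, and the dashed line is the size of the cluster, 2.68% of all cells. Chp2 stands at 91.7% and Plekho1 at 50.3%, whereas the markers stand between 8.27 and 10.8%.

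Of the 499 genes, 392 (78.6%) were also listed for at least 1 of the 6 other non-hepatocyte clusters and 107 (21.4%) were not. A gene counts as shared wherever it was listed, also if its share in the other cluster was below that in the remaining cells. Over all 7 non-hepatocyte clusters 53.6% of the 1405 genes listed for a non-hepatocyte cluster were listed for more than 1, a share that counts each gene once. The share of genes listed alone was 15.9% for B cells, 21.1% for T cells, 11.5% for neutrophils, 33.4% for red blood cells, 37% for the HSC / fibroblast cluster and 7.14% for endothelial cells, so Kupffer cells lay within this range. The 107 genes had median shares of 36.8% in Kupffer cells and 10.6% in all other cells, and the 392 shared genes 39.6% and 26.1%. Of the shared genes 140 were listed for 1 other non-hepatocyte cluster, 115 for 2, 79 for 3, 48 for 4, 8 for 5, and 2 for all 6. Those 2 were Serinc3, a membrane protein that takes part in serine incorporation, and Resf1, a chromatin silencing factor. Of the 107 genes, 14 were also listed for a hepatocyte cluster, Hpgd, Il6ra, Scarb1 and Egr1 among them, and 93 were listed for no other cluster at all.

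**Figure D5:**
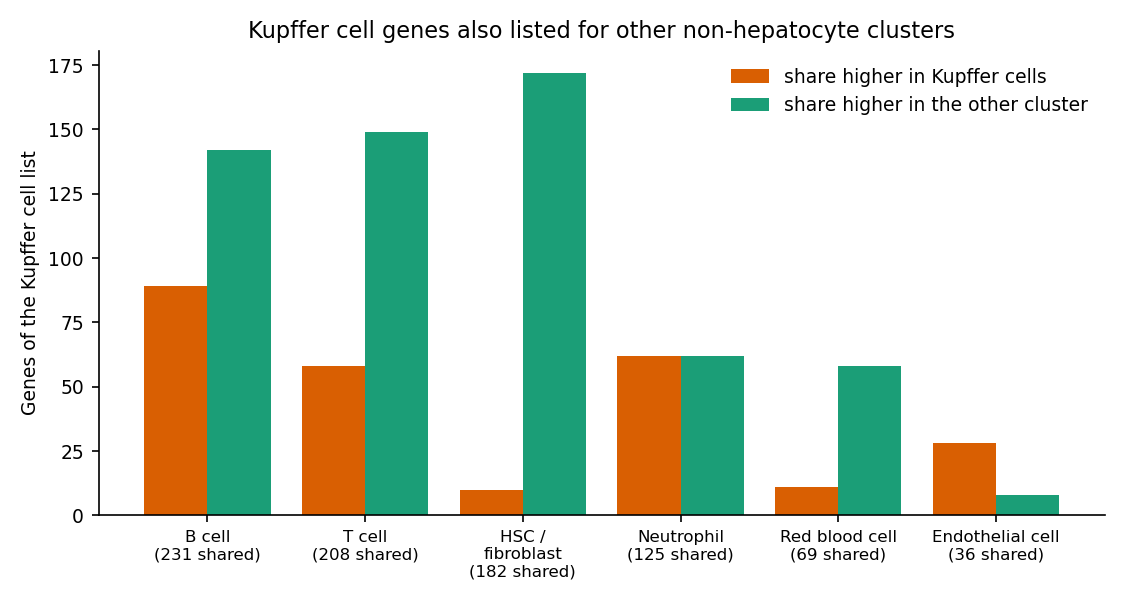
Number of Kupffer cell genes (vertical axis) also listed for each of the 6 other non-hepatocyte clusters, split by whether the share of cells was higher in Kupffer cells (orange) or in the other cluster (green). B cells share 231 genes and endothelial cells 36, and the HSC / fibroblast cluster has the higher share for 172 of 182 genes. The 1 gene with equal shares in neutrophils and the 1 in T cells are in neither bar.

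With B cells 231 genes were shared, 46.3% of the Kupffer cell list and 45.2% of the B cell list. The share was higher in Kupffer cells for 89 and in B cells for 142. Marcks (82.8% against 30.4%), Zeb2 (78.8% against 34%) and Sirpa (68.9% against 27.1%) were more frequent in Kupffer cells. Pim1, a survival kinase (19.5% against 66.8%), and the secretory genes Serp1 (40.4% against 86.6%) and Edem2 (13.2% against 55.9%) were more frequent in B cells. Of the 231, 32 were shared with B cells and no other non-hepatocyte cluster.

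With T cells 208 genes were shared, 41.7% and 34.8% of the 2 lists, with 58 more frequent in Kupffer cells and 149 in T cells. Ctsc, the protease that activates granzymes, was found in 63.6% of Kupffer cells and 18.2% of T cells. Its share over all cells, 34.4%, was above that in T cells. Maf (89.7% against 45.9%) and Sat1, which breaks down polyamines (88.1% against 51.4%), were also more frequent in Kupffer cells. Coro1a, Arhgdib (34.8% against 85.1%), an inhibitor of small GTPases, and Rac2 (34.1% against 81.8%), one such GTPase of blood cells, were more frequent in T cells.

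Neutrophils, the other phagocytes, shared 125 genes, 25.1% of the Kupffer cell list but 55.3% of their own shorter list of 226. Here 62 were more frequent on each side and 1 was equal. Wfdc17, a secreted protein of activated macrophages (78.5% against 13.1%), Slc40a1 (92.7% against 32.5%), Glul, glutamine synthetase (74.5% against 24.1%), and Laptm5 were more frequent in Kupffer cells. Over all cells the shares of Wfdc17, Slc40a1 and Glul were 48.9%, 36.2% and 32.6%. These 3 genes were thus listed for neutrophils with a share below that of all cells, whereas Laptm5 (36.7% against 21.6%) was above it. Slfn2, a regulator of quiescence (34.8% against 84%), and Dhrs7, a dehydrogenase (18.9% against 64.1%), were more frequent in neutrophils. The receptors shared with neutrophils and no other non-hepatocyte cluster included Fcgr3, Cd300a, Pirb, Lilrb4a and Clec12a. Of the 36 Fc and other immune receptors 17 were listed for neutrophils, 14 for B cells and 8 for T cells. Over the whole Kupffer cell list these shares were 25.1%, 46.3% and 41.7%.

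The HSC / fibroblast cluster, the smallest with 0.171% of all cells, shared 182 genes, 36.5% of the Kupffer cell list and 34% of its own. Its shares were coarse: the 535 genes listed for it took 16 distinct values, whereas the 499 of Kupffer cells took 177, so small differences from it cannot be read. The share was higher in that cluster for 172 of the 182, with medians of 73.7% there and 41.7% in Kupffer cells. Over all genes listed for each cluster the medians were 73.7% and 39.1%, so the gap was not particular to the shared genes. Lgmn (93% against 78.9%), Ctsb (97.7% against 84.2%) and Grn (94.7% against 89.5%) were among the 10 that were more frequent in Kupffer cells. Raph1, an actin regulator (14.9% against 100%), Tgfbi, a matrix protein (33.1% against 100%), and Ecm1 were at the other extreme. With this cluster alone 54 genes were shared, more than with any other single cluster. Beside stellate genes such as Dcn (100%) and Lrat (94.7%), the same cluster listed endothelial markers such as Stab2 (73.7%) and Ptprb (94.7%). Because Dcn was above 0 in every cell of the cluster, its cells above 0 for an endothelial marker were above 0 for Dcn too. What part of the sharing rests on such cells was not tested.

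Red blood cells shared 69 genes and endothelial cells 36. Red blood cells were more frequent for 58 of the 69, led by Tfrc and by Fam53b (10.3% against 72.5%), and Kupffer cells for 11, such as Glul (74.5% against 38.8%). For endothelial cells the balance turned: Kupffer cells were more frequent for 28 of 36, with medians of 46.1% and 29.2%, and Zeb2, Marcks, Mrc1, Ctsb and Ctsd were each over 40 points apart. Of these, Ctsd was listed for endothelial cells with 34.3%, below its share of 50.3% over all cells. Postn, periostin (41.7% against 55.6%), and Fcgr2b (26.2% against 33.3%) were more frequent in endothelial cells. These 36 genes were 7.21% of the Kupffer cell list but 36.7% of the endothelial list.

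Hepatocyte clusters listed 96 of the 499 genes, 70 of them for Hepatocyte4, 69 for Hepatocyte5 and 4 for Hepatocyte3, and none for Hepatocyte1 or Hepatocyte2. In Hepatocyte4 the share was higher than in Kupffer cells for 66 of 70 genes, and in Hepatocyte5 for 68 of 69. These 96 genes had median shares of 42.7% in Kupffer cells and 39.3% in all other cells. Grn, for example, was found in 97.4% of Hepatocyte5 and 80.9% of Hepatocyte4, and Lrp1, the receptor that clears remnant lipoproteins, in 98% and 76.9%.

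The 74 genes with a lower share in Kupffer cells than in all other cells form the far end of the list. The largest gap was that of Raph1, with 14.9% and 40.9%. Erlec1, a lectin of protein quality control, had 14.2% and 39.2%, Gas2l1, which links actin and microtubules, 6.3% and 29.9%, Rsad2, the antiviral protein viperin, 8.9% and 31%, and Egr1, an immediate early factor, 25.2% and 47%. Fzr1, an activator of the anaphase-promoting complex (11.3% and 32.5%), Socs2, Edem2, Tram1 (28.1% and 48.7%), a part of the translocon, and Cept1, a phospholipid synthase (19.5% and 39.8%), completed the 10 smallest. Gas2l1 was listed for Kupffer cells and no other cluster although its share there was the lowest of all 499. Why genes with a lower share were listed was not tested.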

How the data were processed

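Both libraries were made from hepatocyte preparations with 10× Genomics 3ʹ kits, without sorting. Per the submitters' processing notes and the methods, the authors aligned reads to mm10 and counted molecules with Cell Ranger. In Seurat, cells outside 200 to 3000 genes or over 50% mitochondrial were dropped, each cell was scaled to 10000 and log-transformed (natural log), and clusters were made from 50 principal components (resolution 5), with markers from FindAllMarkers. They named the clusters by hand. Each deposited fraction, computed by the authors and rounded to 3 decimals, is the part of a cell group in which a gene was above 0; it is printed here as a percentage. The deposited table of all cells had 3742 rows and the table of hepatocytes 2103. Both also hold the authors' p-values, adjusted p-values and log2 fold changes, which were not used. No doublet caller was run. A few listed genes are counted but not reported here by name. Tables per library or per cell were not analysed here.

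Cluster sizes were solved from pairs of shares of the same gene in different clusters, by least squares. The fit was tested on simulated data. Genes were matched to GENCODE M21 (GRCm38) by symbol, and promoters came from RefSeq. All results are descriptions without a test, because clusters and listed genes came from the same pooled cells of 1 library per condition. Named genes were the 6 markers, the 15 largest and 10 smallest differences, the 10 largest parts, up to 10 members of each gene list, the markers of other cell types and up to 5 shared genes per cluster and direction. Other genes named as examples of a function, and the sorting into 19 functions, were chosen after their values were seen. The members and lists were chosen with earlier results of these data known. Alternatives used stricter rows, other fits of the sizes and the edges of rounding. Software was Python 3.11.15, NumPy 2.4.6, pandas 2.3.3, SciPy 1.17.1 and matplotlib 3.10.9.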

Additional observations from a re-analysis of the deposited data

How the results depend on the processing

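The list depends on which rows are kept. With rows at least 10 percentage points apart, 353 genes remained listed, 253 of them shared with another non-hepatocyte cluster (71.7%), and the median shares were 42.4% in Kupffer cells and 12.2% in all other cells. With rows whose share in the cluster was at least 50%, 134 genes were listed and 94 were shared (70.1%). Counting hepatocyte clusters too, 406 of the 499 genes were shared. The size of the cluster stayed at 2.68% in all 3 other fits, and the number of genes with a part over 50% was 15 or 16 with these fits and at both edges of rounding; it was not recomputed on the stricter rows. No paired analysis was possible because the table pools both libraries and holds no value per sample. Depth and the number of cells are not given in the tables, so shares are not set at equal depth.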
